A study of Schizosaccharomyces pombe with 12 samples.

Results

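The genes described here are 10 fission yeast genes of DNA replication and S phase that are transcribed under the MluI cell cycle box-binding factor (MBF): *cdc18*, *cdt1*, *cdt2*, *cdc22*, *cig2*, *mik1*, *dut1*, *yox1*, *nrm1* and *ssb1*. They were found by name, 9 in the annotation of the array platform and *dut1* through its systematic name in the study's gene table, and each had 1 of the 4880 *S. pombe* probe sets. Expression was measured on 12 Affymetrix arrays in 4 groups of 3 labelled biological replicates, which combined 2 strains (wild type and *set3Δ*) with 2 treatments (DMSO and LatA). LatA (latrunculin A) binds actin monomers and blocks the assembly of actin filaments, and Set3p belongs to a histone deacetylase complex needed for reliable cytokinesis under LatA. Cultures grew in YES medium and received LatA or its solvent DMSO for 3 hours before RNA was extracted. The labels give the LatA concentration as 0.5 mM, while the study's methods give the unit as µM. All strains carried ura4-D18, leu1-32 and ade6-216, and the mutant also carried set3::KanMX, a deletion of *set3*. The study's strain list holds a wild type and a *set3Δ* strain of these genotypes with opposite mating types. The sources used here do not say which strains were hybridized, and if these were, mating type and *set3* genotype cannot be told apart between strains.

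MBF is a transcription factor built on Cdc10p, Res1p and Res2p that switches on a wave of genes at the G1/S transition. Rep2p acts as its coactivator, while Nrm1p and Yox1p, both encoded by MBF targets, bind MBF and switch the wave off again. In growing fission yeast, S phase follows mitosis at about the time the daughter cells separate, and the products of the wave license origins, supply nucleotides and hold back the next mitosis.

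The deposited values were log2 intensities from which the median of each probe set across the 12 arrays had been subtracted, so a value of 0 is the middle of the 12 arrays for that gene, and levels cannot be compared between genes. In keeping with the labels, the *set3* probe set read 1.97 to 2.31 in wild type and -2.59 to -1.97 in *set3Δ*. Array medians lay between -0.03 and 0.04. A change was counted where the adjusted p (limma, Benjamini-Hochberg over all 4880 probe sets) was below 0.05 and the fold change above 1.5.

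The third *set3Δ* LatA array stood apart from the other 2 of its group in these genes. All 10 of them were highest of their group there, against 23.3% of all probe sets. The median of the 10 genes was -1.13 and -1.14 in replicates 1 and 2 and -0.09 in replicate 3. Of the differences between replicate 3 and the mean of the other 2 arrays over all 4880 probe sets, those of *cdc22* (1.60), *cdt1* (1.57), *dut1* (1.52) and *mik1* (1.40) ranked 2nd, 3rd, 4th and 7th. Those of *cdc18* (1.27), *cdt2* (1.04) and *cig2* (1.03) ranked 12th, 19th and 22nd. The difference was smaller for *yox1* (0.62), *nrm1* (0.29) and *ssb1* (0.20). The median SD of the 10 genes in this group was 0.67, whereas that of all probe sets was 0.07, and in the other 3 groups the median SD of the 10 genes was between 0.11 and 0.13. The results of the 10 genes that use this array are therefore given with and without it, and those of the other lists by what was called. Leaving it out was chosen after the values of these genes in it had been seen, so calls made without it are no independent support. Why it differs was not tested.

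**Figure D1:**
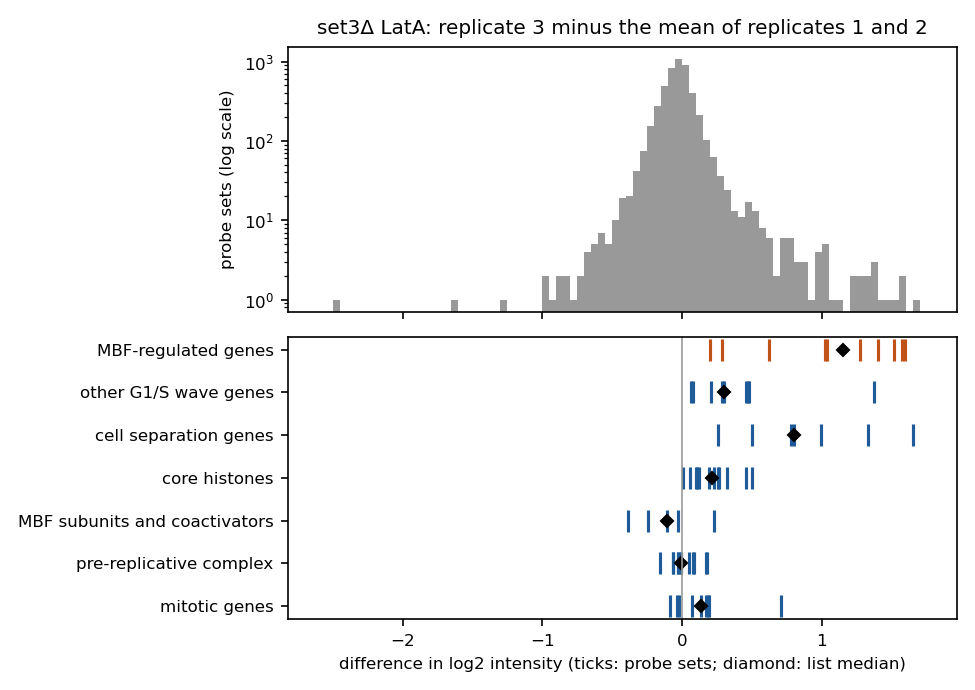
Difference in log2 intensity between replicate 3 of set3Δ LatA and the mean of replicates 1 and 2. The upper panel counts all 4880 probe sets on a log axis, and in the lower panel each tick is a probe set of the named list and each diamond the list's median. The MBF-regulated genes have a median of 1.16, while most probe sets lie near 0.

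Genes of other lists were also highest in that array. All 7 genes of cell separation, 8 of 9 other genes of the G1/S wave and 11 of 12 core histone probe sets were highest of their group there. This held for 6 of 9 mitotic genes, 5 of 12 genes of the pre-replicative complex and 1 of 5 genes of MBF subunits and coactivators. In other readouts the array resembled the LatA arrays. The score of the core environmental stress response (mean of the stress-induced minus mean of the stress-repressed genes) was 0.45 in it, 0.61 and 0.70 in replicates 1 and 2, and -1.06 to 0.01 in the *set3Δ* DMSO arrays. The median of the core histones was -0.41 in it and -0.57 and -0.58 in the other 2.

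**Figure D2:**
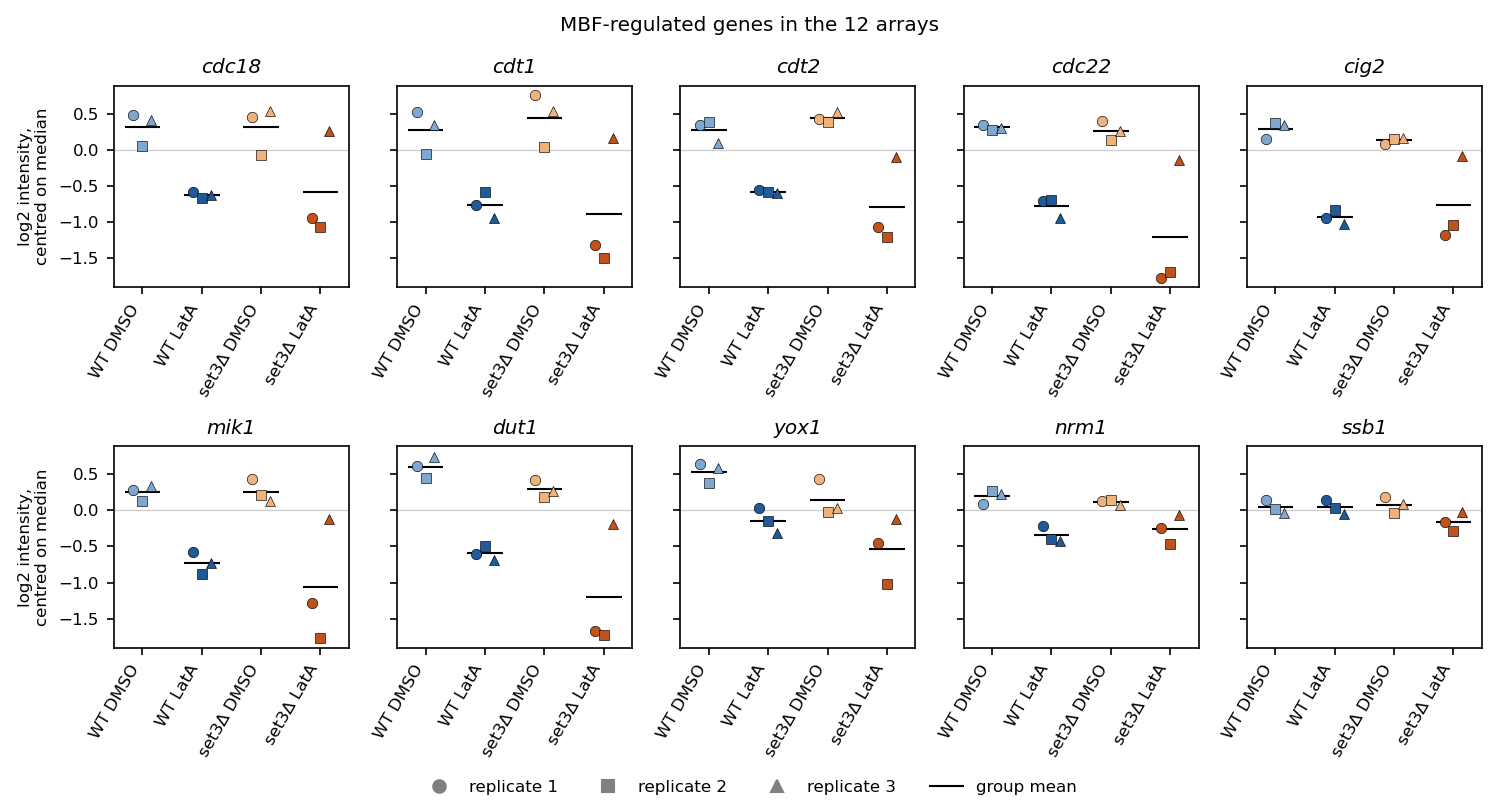
Centred log2 intensity of the 10 MBF-regulated genes in the 12 arrays, a panel per gene. Points are single arrays, with the replicate number given by the symbol, and horizontal lines are means of the 3 arrays of a group. In wild type the LatA points lie below the DMSO points for every gene but ssb1, and in set3Δ with LatA the triangle of replicate 3 lies above the other 2 points in every panel.

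To determine how the wave responded to LatA in wild type, the 3 LatA arrays were compared with the 3 DMSO arrays. Of the 10 genes, 8 fell and none rose, with 7.3% of all probe sets called lower. The median log2 fold change of the 10 genes was -0.96, and that of all probe sets was -0.03. LatA and DMSO arrays did not overlap for 9 of the 10 genes, each lower with LatA, whereas 35.3% of all probe sets were separated in this direction. The exception was *ssb1*. In RNA from whole cultures, fewer cells in S phase and less transcript per cell cannot be told apart.

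Cdc18p and Cdt1p load the replicative helicase onto origins. The values of *cdc18* were 0.49, 0.06 and 0.42 with DMSO and -0.58, -0.67 and -0.62 with LatA. Its level with LatA was 51.8% of that with DMSO, a log2 fold change of -0.95 ± 0.12 (SE; adjusted p = 0.00486, limma). The values of *cdt1* were 0.53, -0.05 and 0.35 with DMSO and -0.75, -0.57 and -0.94 with LatA. Both genes had their lowest DMSO value in replicate 2, and that value still lay above every LatA value. The change of *cdt1* was -1.03 ± 0.17 (adjusted p = 0.00642). Cdt2p is the substrate adaptor of the Ddb1p-Pcu4p ubiquitin ligase, which destroys Cdt1p and the nucleotide reductase inhibitor Spd1p in S phase. The values of *cdt2* were 0.35, 0.40 and 0.10 with DMSO and -0.55, -0.58 and -0.60 with LatA, a change of -0.86 ± 0.09 (adjusted p = 0.00480).

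Both genes of nucleotide supply fell. Cdc22p is the large subunit of ribonucleotide reductase, and its gene had the values 0.35, 0.28 and 0.31 with DMSO and -0.70, -0.69 and -0.94 with LatA. The log2 fold change of *cdc22* was -1.09 ± 0.08 (adjusted p = 0.00332). *dut1* encodes the dUTPase that keeps uracil out of DNA. It was measured at 0.61, 0.45 and 0.74 with DMSO and at -0.61, -0.50 and -0.68 with LatA, with a change of -1.20 ± 0.09 (adjusted p = 0.00332). The LatA levels of *cdc22* and *dut1* were 46.9% and 43.7% of the DMSO levels.

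Of the 10 genes, the cyclin gene *cig2* had the lowest fitted value. Cig2p is the B-type cyclin of S phase entry, and its gene read 0.16, 0.37 and 0.35 with DMSO and -0.94, -0.83 and -1.03 with LatA. The change was -1.22 ± 0.08 (adjusted p = 0.00332), to 42.8% of the DMSO level. Mik1p is a kinase that inhibits Cdc2p and so delays mitosis while DNA is being replicated. Its gene read 0.28, 0.13 and 0.34 with DMSO and -0.58, -0.88 and -0.73 with LatA, a change of -0.98 ± 0.10 (adjusted p = 0.00480).

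The genes of the MBF corepressors had smaller fitted changes. *yox1* read 0.64, 0.38 and 0.59 with DMSO and 0.03, -0.15 and -0.32 with LatA, a change of -0.68 ± 0.11 (adjusted p = 0.00683). *nrm1* read 0.10, 0.26 and 0.23 with DMSO and -0.22, -0.39 and -0.42 with LatA. Its log2 fold change of -0.54 ± 0.08 passed the adjusted p (0.00549) but was below the fold limit, at 1.45-fold. *ssb1*, the gene of the large subunit of the single-stranded DNA-binding protein RPA, read 0.14, 0.02 and -0.03 with DMSO and 0.14, 0.04 and -0.04 with LatA. The LatA and DMSO values of *ssb1* overlapped throughout. Its change was 0.00 ± 0.07 (adjusted p = 0.969), with a 95% confidence interval from -0.18 to 0.18.

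The 7 genes from *cig2* to *cdt2* thus lay between -1.22 and -0.86, and all of their 95% confidence intervals overlapped. The interval of *yox1* (-0.95 to -0.40) did not reach those of *cig2* (-1.43 to -1.02) and *dut1* (-1.42 to -0.97). That of *nrm1* (-0.735 to -0.345) reached neither these nor those of *cdc22* (-1.29 to -0.893) and *mik1* (-1.21 to -0.745). The interval of *ssb1* overlapped that of no other of the 10. In the RefSeq annotation *ssb1* and *mik1* are next to each other on chromosome II, and *mik1* fell while *ssb1* had the value above.

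**Figure D3:**
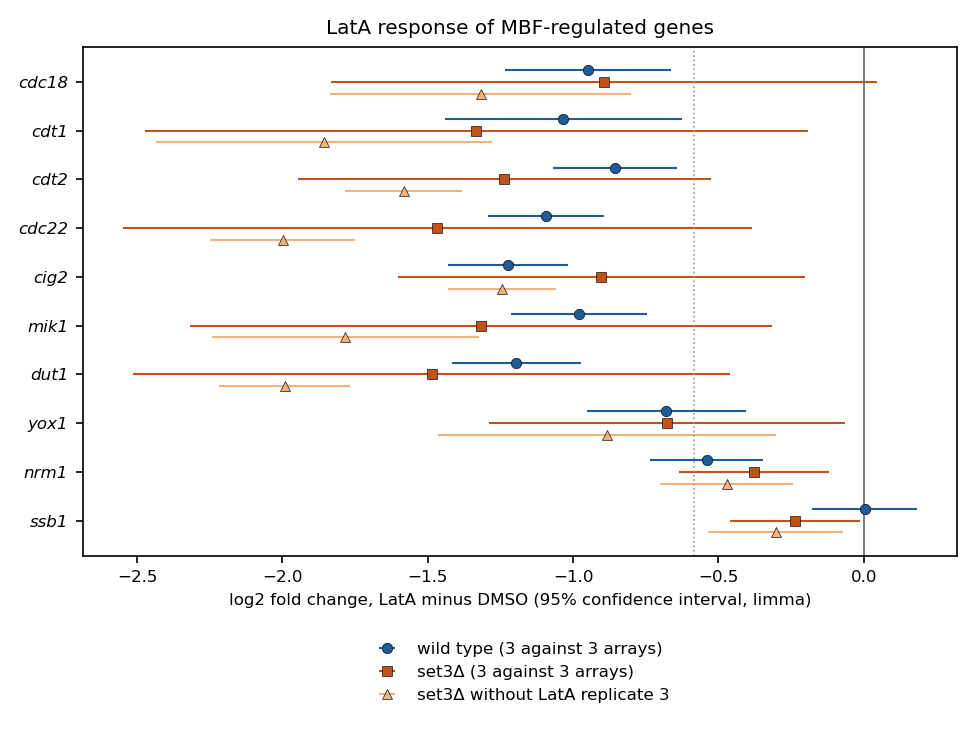
Log2 fold change of each MBF-regulated gene, LatA minus DMSO, in wild type (circles), in set3Δ (squares) and in set3Δ without LatA replicate 3 (triangles). Bars are 95% confidence intervals from limma, the solid line marks no change and the dotted line a fold change of 1.5 downwards. The set3Δ intervals with all arrays are wide, for example -2.55 to -0.39 for cdc22, and narrow to -2.25 to -1.75 without replicate 3.

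The same comparison in *set3Δ* gave a similar direction with a much larger error. All 10 log2 fold changes were negative, with a median of -1.07 (all probe sets, -0.02). An unadjusted p below 0.05 was seen for 9 of the 10 and for 1805 of all 4880 probe sets. LatA and DMSO arrays did not overlap for 7 of the 10 genes, each lower with LatA, and this held for 25.2% of all probe sets. After adjustment 1 of the 10 fell, *cdt2*, with 1.64% of all probe sets called lower. Without replicate 3 of the LatA arrays 7 of the 10 fell, with 1.25% of all probe sets called lower, and the median was -1.45. Leaving out any other array of the comparison, DMSO replicates 1, 2 or 3 or LatA replicates 1 or 2, left 0 of the 10 called.

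Among the licensing genes, *cdc18* read 0.46, -0.06 and 0.54 with DMSO and -0.94, -1.07 and 0.27 with LatA. Replicate 3 lay within the range of the DMSO arrays, and the change was -0.89 ± 0.38 (adjusted p = 0.147, limma) with it and -1.32 ± 0.20 (adjusted p = 0.0481) without it. *cdt1* showed the same arrangement, with 0.76, 0.05 and 0.55 with DMSO and -1.31, -1.50 and 0.17 with LatA. Its change was -1.33 ± 0.47 (adjusted p = 0.0995) with replicate 3 and -1.86 ± 0.22 (adjusted p = 0.0285) without. *cdt2* read 0.43, 0.38 and 0.53 with DMSO and -1.07, -1.20 and -0.10 with LatA, so that even replicate 3 lay below the DMSO arrays. The change of *cdt2* was -1.24 ± 0.29 (adjusted p = 0.0467) with all arrays and -1.58 ± 0.08 (adjusted p = 0.00241) without replicate 3.

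*cdc22* read 0.40, 0.14 and 0.26 with DMSO and -1.77, -1.69 and -0.14 with LatA. *dut1* read 0.42, 0.18 and 0.27 with DMSO and -1.67, -1.73 and -0.18 with LatA. For both genes of nucleotide supply, replicate 3 lay below all DMSO arrays but much closer to them than to the other LatA arrays. Without replicate 3 these genes had the lowest values of the 10, with log2 fold changes of -2.00 ± 0.10 for *cdc22* and -1.99 ± 0.09 for *dut1* (adjusted p = 0.00241 for each). With it they were -1.47 ± 0.44 (adjusted p = 0.0764) and -1.49 ± 0.42 (adjusted p = 0.0675).

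*cig2* read 0.08, 0.16 and 0.16 with DMSO and -1.18, -1.04 and -0.08 with LatA, a change of -0.90 ± 0.29 (adjusted p = 0.0835) that became -1.24 ± 0.07 (adjusted p = 0.00395) without replicate 3. *mik1* read 0.43, 0.21 and 0.13 with DMSO and -1.28, -1.77 and -0.13 with LatA. The change of the kinase gene was -1.32 ± 0.41 (adjusted p = 0.0810) and, without replicate 3, -1.78 ± 0.18 (adjusted p = 0.0227).

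*yox1* read 0.44, -0.03 and 0.03 with DMSO and -0.45, -1.02 and -0.12 with LatA. *nrm1* read 0.13, 0.15 and 0.07 with DMSO and -0.24, -0.47 and -0.07 with LatA. The LatA arrays of both corepressor genes lay below the DMSO arrays, with changes of -0.68 ± 0.25 (adjusted p = 0.111) for *yox1* and -0.38 ± 0.11 (adjusted p = 0.0662) for *nrm1*. Neither passed without replicate 3, at -0.88 ± 0.23 (adjusted p = 0.0969) and -0.47 ± 0.09 (adjusted p = 0.0609). *ssb1* read 0.19, -0.04 and 0.09 with DMSO and -0.16, -0.28 and -0.02 with LatA. The groups of *ssb1* overlapped by 1 array, and its change was -0.24 ± 0.09 (adjusted p = 0.119), and -0.30 ± 0.09 (adjusted p = 0.120) without replicate 3.

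With DMSO alone, *set3Δ* was compared with wild type to ask whether the deletion moved these genes before any drug was added. None of the 10 genes was called, with 0.123% of all probe sets called. An unadjusted p below 0.05 was seen for 1111 of all 4880 probe sets and for 2 of the 10 genes. The 2 genes were *dut1*, at -0.31 ± 0.10 (adjusted p = 0.183, limma), and *yox1*, at -0.39 ± 0.15 (adjusted p = 0.204). The *set3Δ* values of *dut1* lay below all wild-type values, as 18.3% of all probe sets did, while those of the other 9 genes overlapped. The intervals of the remaining 8 genes bounded the difference between the strains unevenly, from -0.24 to 0.15 for *cdc22* and from -0.39 to 0.74 for *cdt1*.

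With LatA, *set3Δ* and wild type again gave none of the 10 as called, with 3.16% of all probe sets called. Only *ssb1* (-0.20 ± 0.08, adjusted p = 0.132, limma) had an unadjusted p below 0.05, as had 1727 of all 4880 probe sets. All 10 genes overlapped between the strains, while 857 of all probe sets were separated lower in *set3Δ* and 1135 higher. Replicates 1 and 2 of *set3Δ* lay outside the wild-type LatA arrays on the low side for 9 and 10 of the 10 genes, and replicate 3 lay above all of them for 8. Replicate 3 was left out for its high values of these genes, so calls without it are no independent support for a strain difference. Without it, 4 genes were called lower in *set3Δ*, with 2.36% of all probe sets called lower. These were *dut1* (-1.10 ± 0.07, adjusted p = 0.00179), *cdc22* (-0.96 ± 0.09, adjusted p = 0.00534), *mik1* (-0.80 ± 0.16, adjusted p = 0.0405) and *cdt1* (-0.65 ± 0.12, adjusted p = 0.0318). The changes of *cdt2* (-0.56, adjusted p = 0.00645) and *cdc18* (-0.38, adjusted p = 0.0225) passed the adjusted p and not the fold limit. *cig2* and *nrm1* were at -0.18 (95% confidence interval -0.38 to 0.03) and -0.01 (-0.26 to 0.24).

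The difference between the LatA responses of the strains was tested on all 12 arrays. None of the 10 genes was called, with 0.0615% of all probe sets called. None had an unadjusted p below 0.05, while 986 of all 4880 probe sets had. The fitted differences lay between -0.38 for *cdt2* and 0.32 for *cig2*. Their 95% confidence intervals were wide, from -1.50 to 0.90 for *cdt1* and from -0.14 to 0.47 for *nrm1*. Replicate 3 of *set3Δ* LatA was left out for its high values of these genes, so the fit without it is no independent test of the strains. In that fit 3 genes were called lower, with 0.451% of all probe sets called lower. They were *cdc22* (-0.91 ± 0.13, adjusted p = 0.0220, limma), *dut1* (-0.80 ± 0.13, adjusted p = 0.0442) and *cdt2* (-0.73 ± 0.12, adjusted p = 0.0442). The difference of *mik1* (-0.80, adjusted p = 0.166) and that of *cdt1* (-0.82, adjusted p = 0.249) were of a similar size but did not pass. For *cig2* the responses without replicate 3 differed by -0.02, with an interval from -0.28 to 0.24.

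Other measures differed between the groups beside these genes. The stress response score was -1.52 to -0.74 in the wild-type DMSO arrays, 0.24 to 0.45 in the wild-type LatA arrays and -1.06 to 0.01 in the *set3Δ* DMSO arrays. The M-factor pheromone gene *mfm2*, expressed in M mating type cells, was lower in *set3Δ* by a log2 fold change of -4.62 (adjusted p = 0.00131, limma) with DMSO. It was the only one called there among 7 probe sets for genes typical of M cells. Of these 7, 5 were lower in *set3Δ* and 2 higher, both of *mfm3* (0.28 and 0.15). The P cell genes *map2* (-0.15) and *map3* (0.08) were not called. With LatA, 3 of the 7 M cell probe sets were called lower in *set3Δ*, and neither P cell gene was called. Over all probe sets, 2.15% were called lower there. Without replicate 3 of *set3Δ* LatA, *mfm2* (-5.66), *mam2* (-1.01) and *mam1* (-0.72) were called lower, with 2.36% of all probe sets. The part of the stress response score or of these mating genes in the values of the MBF-regulated genes was not tested.

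Of the genes of MBF itself, 2 of 5 were called in wild type with LatA, in opposite directions. Over all probe sets, 14.5% were called in either direction in wild type with LatA and 3.61% in *set3Δ*. In wild type with LatA, *res2* rose, with a log2 fold change of 1.11 ± 0.35 (adjusted p = 0.0436, limma), and the coactivator gene *rep2* fell, with -0.62 ± 0.13 (adjusted p = 0.0110). *res1* (-0.30) was below the fold limit, and *cdc10* (-0.11) and the meiotic coactivator gene *rep1* (0.07) did not pass. None of the 5 was called in *set3Δ*, where *res2* was at 0.50 and *rep2* at 0.07, and the differences between the LatA responses did not pass for either (-0.61, adjusted p = 0.510, and 0.69, adjusted p = 0.150). With LatA, *res1* was at 0.51 in *set3Δ* against wild type (adjusted p = 0.0118), below the fold limit. None of the 5 was called in either comparison between the strains, nor in any comparison without replicate 3 of *set3Δ* LatA.

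Of 6 direct partners of the 10 gene products, 1 was called in wild type with LatA and none in *set3Δ*. Over all probe sets, 14.5% were called in wild type and 3.61% in *set3Δ*, so these counts are near those shares. *suc22*, the small subunit of ribonucleotide reductase, was at 0.02 in both strains with LatA against DMSO, beside -1.09 and -1.47 for *cdc22*. *spd1*, which encodes an inhibitor of the reductase, was at 0.19 in wild type and -0.10 in *set3Δ*. *ddb1* and *pcu4*, the partners of Cdt2p, were at 0.07 and -0.16 in wild type and at -0.02 and -0.19 in *set3Δ*. Of the other RPA subunits, *ssb3* fell in wild type (-0.76 ± 0.18, adjusted p = 0.0175, limma) and was at -0.28 in *set3Δ*, while *ssb2* was at -0.07 and -0.04. None of these 6 partner genes was called in any other comparison, nor without replicate 3 of *set3Δ* LatA.

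Among 9 other genes of the G1/S wave, 1 fell in wild type with LatA, *tos4* (-1.01 ± 0.09, adjusted p = 0.00471, limma). In *set3Δ* 1 fell, the DNA polymerase delta subunit gene *cdm1* (-1.04, adjusted p = 0.0451). Over all probe sets, 7.3% were called lower in wild type and 1.64% in *set3Δ*. Without replicate 3 *cdm1* no longer passed, at -1.20 (adjusted p = 0.0678). The median of the 9 genes was -0.37 in wild type and -0.35 in *set3Δ*, against -0.96 and -1.07 for the 10 MBF-regulated genes. Without that array, *tos4* (-1.83) and the checkpoint mediator gene *mrc1* (-0.64) fell in *set3Δ*, with 1.25% of all probe sets called lower. The replisome gene *pol1* (-0.39, adjusted p = 0.0384) was below the fold limit in wild type. Of 12 pre-replicative complex genes, whose products Cdc18p and Cdt1p bring together, 1 fell in wild type, *mcm7* (-0.82, adjusted p = 0.00480). The shares of both lists called lower in wild type were near that of all probe sets. None of the 12 was called in *set3Δ*, with or without replicate 3. *orc5* (-0.56), *mcm4* (-0.49) and *mcm6* (-0.49) passed the adjusted p in wild type below the fold limit.

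Genes that act before or after the wave were also counted with LatA against DMSO. Over all probe sets, 14.5% were called in wild type and 3.61% in *set3Δ*. Of 7 regulators of G1 CDK activity 1 was called in each strain, a share near that of all probe sets in wild type and resting on 1 gene in each. The cyclin gene *pas1* rose in wild type (0.72, adjusted p = 0.0162, limma) and the cyclin gene *puc1* rose in *set3Δ* (0.60, adjusted p = 0.0178; also called without replicate 3). Pas1p is a cyclin that promotes MBF activity. Of 4 genes of the S phase checkpoint, the kinase gene *rad3* rose in wild type (0.61, adjusted p = 0.0427). None of the 4 was called in *set3Δ*, with or without replicate 3. None of 9 mitotic genes was called in either strain, nor in *set3Δ* without replicate 3. An unadjusted p below 0.05 was seen for 4 in wild type and 2 in *set3Δ*. Over all 4880 probe sets this held for 2610 and 1805.

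The core histone genes, which are also expressed in S phase, were called mainly in *set3Δ*. None of their 12 probe sets was called in wild type with LatA, where the median was -0.11. An unadjusted p below 0.05 was seen for 5 of them, and for 2610 of all 4880 probe sets. In *set3Δ* 6 of 12 fell, both probe sets each of *hhf1*, *hhf3* and *hht1*, with 1.64% of all probe sets called lower. *hhf1* was down to -1.21 and *hhf3* at -0.80 and -0.77. *hht3* (-0.44), *hta1* (-0.41), *hta2* (-0.39) and *htb1* (-0.39) passed the adjusted p (0.0184 to 0.0276, limma) below the fold limit. *hht2* (-0.0046, adjusted p = 0.949) and *hhf2* (-0.19) did not pass it. The same 6 were called without replicate 3, with 1.25% of all probe sets called lower. With LatA, 4 of 12 were lower in *set3Δ* than in wild type, all of *hhf1* and *hht1*, with 2.15% of all probe sets called lower. Without replicate 3 this was 6 of 12, with 2.36% of all probe sets. The difference between the LatA responses was called for 0 of 12 with all arrays. Here 10 had an unadjusted p below 0.05, as had 986 of all 4880 probe sets. Without replicate 3 it was called lower for 4 of 12, all of *hhf1* and *hht1*, with 0.451% of all probe sets. Histone genes are near-identical copies, so a probe set can read more than 1 of them.

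**Figure D4:**
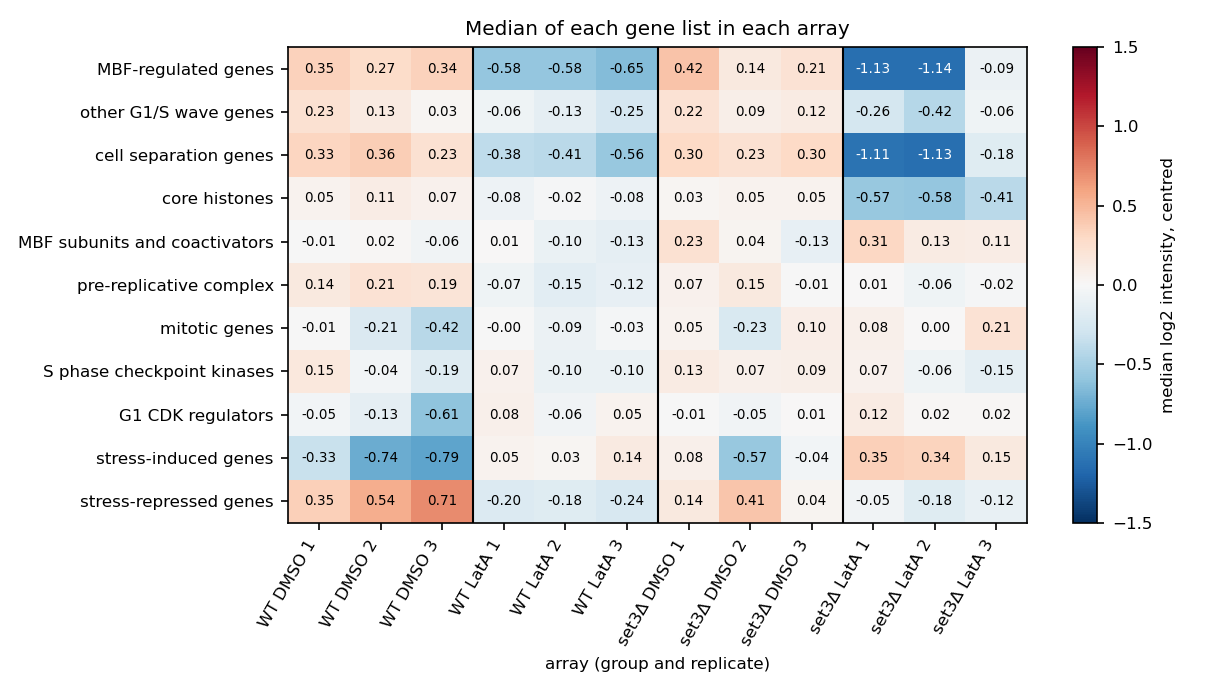
Median centred log2 intensity of each gene list (rows) in each of the 12 arrays (columns), with the value written in each cell. Stress-induced and stress-repressed genes are the core environmental stress response. The MBF-regulated genes go from 0.14 or above in every DMSO array to -0.58 or below in the wild-type LatA arrays, and to -1.13, -1.14 and -0.09 in the set3Δ LatA arrays.

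The profiles closest to the mean of the 10 genes over the 12 arrays came mainly from cell separation. Closeness was taken as the root mean square difference to that mean, which for the median probe set was 0.572. Outside the 10 genes, the closest were *adg2* (0.137), *adg3* (0.143) and *agn1* (0.146), then *ams2* (0.178) and *eng1* (0.187). *eng1* and *agn1* encode the glucanases that open the septum between daughter cells, *adg2* and *adg3* belong to the same list of cell separation genes, and *ams2* encodes a GATA factor that activates histone genes. Of the 10 genes themselves, *cdt2* (0.144) and *cdc18* (0.162) were the closest, at ranks 3 and 5, all others but *ssb1* were within the closest 38 probe sets, and *ssb1* was at rank 749 (0.490). All of these values come from the same 12 arrays, the third *set3Δ* LatA array included. Each of the 10 genes is part of the mean it was ranked against, so its rank is not comparable with those of outside genes.

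**Figure D5:**
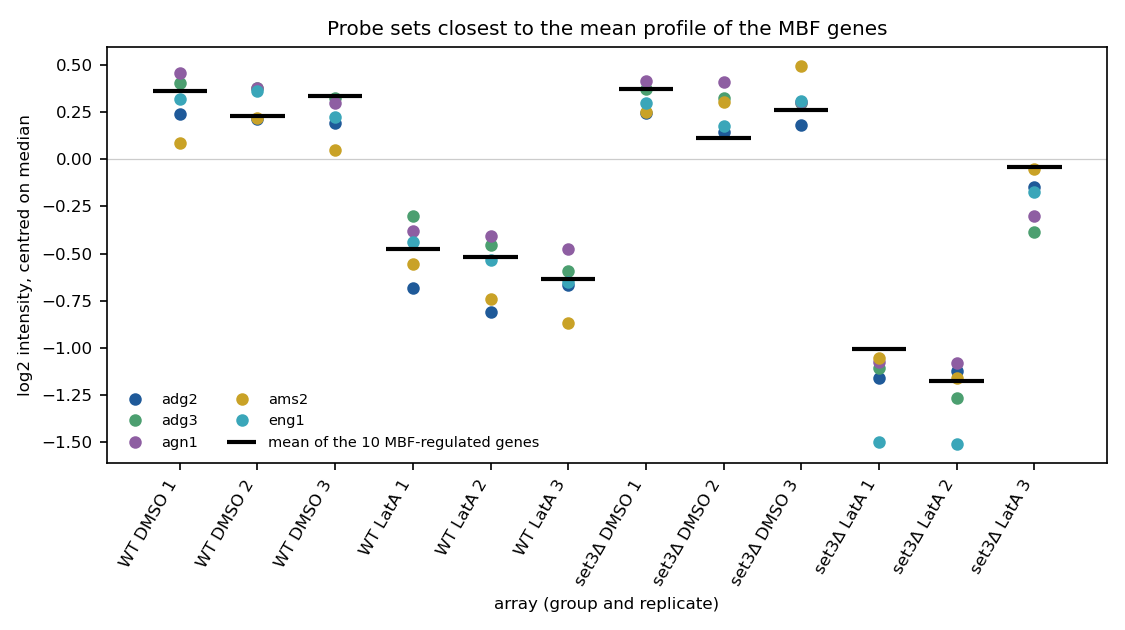
Centred log2 intensity in the 12 arrays of the 5 named probe sets closest to the mean profile of the 10 MBF-regulated genes (points) and that mean profile (black lines). The mean lies between 0.12 and 0.38 in the DMSO arrays, between -0.63 and -0.47 in the wild-type LatA arrays and at -1.01, -1.18 and -0.04 in the set3Δ LatA arrays.

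The cell separation genes were also counted in the same comparisons. *adg2*, *adg3*, *agn1* and *eng1* of this list were picked as close profiles from the same values, so their calls are no independent support. With LatA in wild type 5 of 7 fell, with 7.3% of all probe sets called lower, including *adg2* (-0.94), *adg1* (-0.91), *eng1* (-0.85) and *adg3* (-0.82). In *set3Δ* 3 of 7 fell (1.64% of all probe sets), among them *adg3* (-1.25) and *agn1* (-1.20). Without replicate 3 this was 6 of 7 (1.25% of all probe sets), with *adg1* at -2.33. Between the strains with LatA none of the 7 was called with all arrays. There 1 had an unadjusted p below 0.05 (limma), as had 1727 of all 4880 probe sets. Without replicate 3, 4 were lower in *set3Δ* (2.36% of all probe sets). The difference between the LatA responses was called for none of the 7 with all arrays. For it 1 had an unadjusted p below 0.05, as had 986 of all 4880 probe sets. Without replicate 3 it was called for 4 (0.451% of all probe sets), with *adg1* (-1.42) and *eng1* (-0.92) the lowest.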

How the data were processed

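Total RNA of 12 cultures was hybridized to Affymetrix Yeast Genome 2.0 arrays. RMA normalization was done by the authors, who deposited log2 intensities. Each probe set has a median of 0 over the 12 arrays (largest deviation 7e-07), so it was centred before deposit, which removes its level and leaves differences between arrays as they were. No filter on dim probe sets was made on these centred values, and precision is limited by 3 arrays per group. Replicates are labelled biological, and the sources used here do not say whether they were grown on separate days.

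Probe sets were named from the platform table and, for others, from the study's gene table (3917 with 1 gene, 19 with several, 944 with none). The stress response lists came from the study's gene table. The 10 genes and all lists were chosen with earlier results of these data known.

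Groups were compared with limma 3.58.1 (R 4.3.3) on the 6 arrays concerned, and the LatA responses of the strains on all 12. Changes count at a Benjamini-Hochberg adjusted p below 0.05 over 4880 probe sets and a fold change above 1.5, the thresholds of the study's methods. The procedure was tested on simulated data. Named by rule are the 10 genes, MBF subunits, direct partners, up to 4 members of each other list with the largest change in a comparison, and the 5 closest profiles. *mrc1*, and *agn1* and *hht1* in some comparisons, were named after their values were seen.

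Alternatives were a fit of all 12 arrays, a replicate block added as fixed terms to the model, each probe set's own variance and array weights. Others were median-centred arrays, exclusion of probe sets open to several genes, other fold limits and leaving out each array. Figures used Python 3.11.15 and matplotlib 3.10.9. No sequences are shown, and 1 gene of the mitotic list is not reported here.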

Additional observations from a re-analysis of the deposited data

How the results depend on the processing

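In wild type, 8 or 9 of the 10 genes were called lower under every alternative but a fold limit of 2, which left 4. Their median of -0.96 was -0.87 with array weights and -1.06 to -0.89 on leaving out each array. Array weights stopped before their tolerance in 3 of 5 fits. In *set3Δ* the count of 1 became 7 with all 12 arrays fitted together, 0 with a replicate block, 0 with each probe set's own variance and 0 with array weights, and was 0 to 7 on leaving out each array. The block left 0 probe sets called in the whole *set3Δ* comparison, against 176, and 704 against 708 in wild type. Same-numbered arrays did not deviate together (r from -0.50 to 0.56 over 18 pairs, 5 of 12 arrays closest to their own number), so numbers were not taken to pair arrays. Between strains, 0 genes were called with DMSO under every alternative, 0 to 4 with LatA and 0 to 3 for the difference of responses on leaving out each array, the highest counts being without *set3Δ* LatA replicate 3. The median of the 10 genes was -1.45 to -0.86 in *set3Δ* on leaving out each array.

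Changes of sign were seen only for genes that were not called in that comparison with all arrays. Among them were *cdt1* and *mik1* between strains with LatA, which were called lower there without *set3Δ* LatA replicate 3. With array weights *cdc18* was at 0.24 between strains with DMSO, -0.043 with LatA and -0.24 for the difference of responses, where *yox1* was at -0.24, and -0.012 with median-centred arrays. On leaving out each array the sign changed for *ssb1* in wild type (-0.045 to 0.051). It changed between strains with DMSO for *cdc18* (-0.14 to 0.18), *mik1* (-0.079 to 0.075), *ssb1* (-0.018 to 0.096) and *cdc22* (-0.12 to 0.018), and with LatA for *cdc18* (-0.38 to 0.29), *cdt1* (-0.65 to 0.19), *mik1* (-0.80 to 0.028), *cig2* (-0.18 to 0.37) and *nrm1* (-0.011 to 0.19). For the difference of responses it changed for *cdc18* (-0.37 to 0.30), *cdt1* (-0.82 to 0.0099), *mik1* (-0.80 to 0.019), *cig2* (-0.021 to 0.53) and *yox1* (-0.20 to 0.25).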
